A study of Mus musculus with 9 samples.

Results

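The mitosis genes are 39 genes named by symbol for their roles in cell division: mitotic cyclins and their kinase, checkpoint and kinetochore genes, kinesins and their partners. Each symbol matched 1 row, giving 39 of the 47728 genes in the count files, and all 39 were among the 13094 genes tested. They were measured by polyA RNA sequencing of C2C12, a mouse myoblast line that leaves the cell cycle and fuses into myotubes when serum is reduced. The groups were a control, a Cry1 knockdown and a Cry2 knockdown, each collected at days 0, 3 and 5, so that every combination has 1 library and there are 9 in all. All groups grew in 10% fetal bovine serum before day 0, when the medium was changed to 5% horse serum with 1% of an insulin, transferrin and selenium supplement. The labels give neither how the knockdowns were made, nor what the control received, nor whether a line was 1 clone. Cry1 and Cry2 encode cryptochromes, which repress transcription in the circadian clock.

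Mitosis runs on a set of proteins that cells make shortly before they divide and destroy as they finish. Cyclin-dependent kinase 1, bound to cyclins A and B, starts the process, Aurora and Polo-like kinases build the spindle, and kinesins move chromosomes and microtubules along it. The checkpoint holds the cell until every kinetochore is attached, after which the anaphase-promoting complex marks cyclin B for destruction. The genes of these proteins are switched on late in the cell cycle by the transcription factors B-Myb and FoxM1, and they are repressed in cells that have left the cycle by a complex called DREAM, which shares its MuvB core with the activating complexes. Myoblasts leave the cycle before they become myotubes.

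Library totals ran from 4731020 to 6412279 counts. The targeted transcripts were lower in their own knockdowns: Cry1 had 8.28, 6.64 and 8.11 CPM (counts scaled to library size with TMM factors) at days 0, 3 and 5 of the Cry1 knockdown against 20.5, 15.8 and 17.4 in the control. Cry2 had 7.25, 8.24 and 16.6 CPM in the Cry2 knockdown against 19.2, 39.6 and 48.8 in the control. The day 0 library of the Cry2 knockdown stood apart in mt-Co2 and mt-Atp6, mitochondrially encoded transcripts, with 610 and 512 CPM against at most 12.9 and 8.24 CPM in the other 8 libraries, so results of the Cry2 knockdown are also given without it. All mitochondrially encoded genes together took 1.22% of its counts, within the 0.695% to 2.21% of the other 8 libraries. At day 0 the control had 0.695% and the Cry1 knockdown 0.921%. The 5 myotube markers together rose from 178 to 797 CPM at day 0 to between 10360 and 16660 CPM at days 3 and 5. Of the 5 markers each for adipocytes, osteoblasts, and endothelial and blood cells, 3 had no more than 3 counts in any library. Those above that were Pparg and Fabp4 for adipocytes, at 5.70 to 12.9 and 0.146 to 2.64 CPM. For osteoblasts they were Runx2 and Sp7, at 26 to 61 and 0 to 0.83 CPM. For endothelial and blood cells they were Cd68 and Kdr, at 0.335 to 2.03 and 0 to 0.881 CPM. Of the 5 fibroblast markers Thy1 had 0 counts throughout, whereas Col1a1 ran from 485 to 5387 CPM and rose from day 0 to day 5, as did Dcn and Lum. Pdgfra went the other way by day 3, from 15.15 to 22.1 CPM at day 0 to between 8.45 and 10.3 CPM. At day 5 it ran from 9.05 to 22.7 CPM. A p-value here weighs a day difference against disagreement between the 3 genotypes, or a genotype difference against disagreement between the 3 days. It does not measure the spread between cultures.

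The mitosis genes fell together when the cells were put into differentiation medium, and went on falling. Their levels added up to 4865, 970 and 456 CPM at days 0, 3 and 5 in the control. In the Cry1 knockdown the sums were 4952, 963 and 459 CPM, and in the Cry2 knockdown 4070, 780 and 418 CPM. At day 3 there was 19.5% ± 0.38 of the day 0 level left, and at day 5 9.64% ± 0.55 (SD over the 3 genotypes). The 3 genotypes thus lay close together in the share they kept, and the Cry2 knockdown was the lowest in level at each day. In bulk RNA, fewer cells in mitosis and less of these transcripts per cell cannot be told apart.

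All 39 genes passed the threshold, adjusted p under 0.05, for a fall from day 0 to day 3, where 25.7% of all tested genes fell and 25.4% rose. Their median log2 fold change was -2.38, against 0.01 over all genes tested, with a range of -3.27 to -1.68. In all 39, each library of day 3 was below each library of day 0, as in 27.2% of tested genes. From day 3 to day 5 all 39 fell again, where 13.2% of tested genes fell and 14.7% rose, with a median of -1.05 and a range of -2.17 to -0.47. The day 5 libraries were all below the day 3 libraries in 36 of the 39 (17.8% of tested genes), and the same 36 had 3 days with no overlap (6.38% of tested genes). The exceptions were Mki67, Foxm1 and Kif15. Over the whole course, day 5 against day 0, all 39 fell, with a median log2 fold change of -3.38 (27.9% of tested genes fell and 28.3% rose). The second step was the less steady of the 2 in its calls: with 1 genotype left out, 29 to 35 of the 39 genes passed from day 3 to day 5, whereas all 39 passed from day 0 to day 3 in every alternative run.

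**Figure D1:**
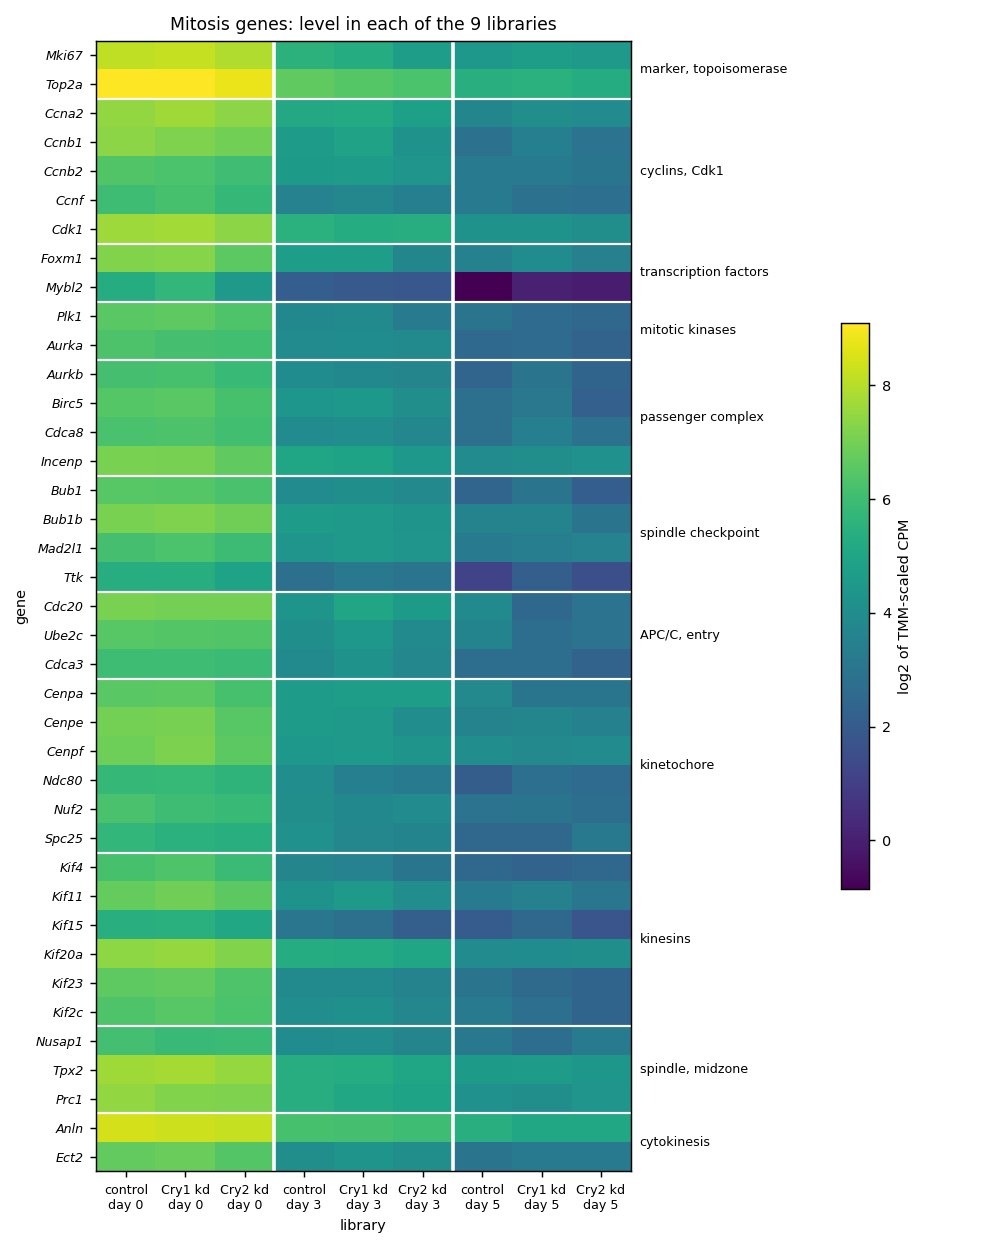
Level of each of the 39 mitosis genes (rows, grouped by role) in each of the 9 libraries (columns, grouped by day; kd, knockdown), as the log2 of TMM-scaled CPM on a colour scale. Every gene is highest in the 3 columns of day 0, and Mybl2 at day 5 holds the lowest levels, 0.554 to 1.06 CPM.

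The promoters of these genes were searched for 4 motifs. RefSeq promoters (mouse build GRCm38.p6, from 250 bases before to 50 bases after the start of transcription) were found for 33 of the 39 genes. The cell cycle genes homology region, or CHR, is the element that the MuvB core binds. It was searched on both strands as TTTGAA or TTCGAA, and was found in 26 of the 33 genes, 78.8%, against 19.2% of all 32851 promoters and 16.3% of the tested genes in the table. CCAAT, the box bound by the activator NF-Y, was found in 24 of the 33, 72.7%, against 37.4% of all promoters and 43.2% of tested genes. Both stood in 22 of the 33, 66.7%, against 7.52% and 6.88%. A match is a description of letters and not a bound site, and none of the searched words contains another.

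The words searched for the other 2 elements were found in few of the genes. An E2F site, searched as TTTCGCGC, TTTGGCGC or TTCCCGCC, stood in 2 of the 33 (6.06%, against 2.96% of all promoters and 6.46% of tested genes), those of Cdk1 and Kif15. Only these exact words were counted. Other forms of the site were not searched, so a gene without a match, such as Mybl2, may still hold one. The E-box CACGTG, the word to which the clock activators bind and where cryptochromes repress, stood in 2 of the 33 (6.06%, against 7.15% and 11.9%), those of Anln and Ttk. Matches to the CHR lay close to the start, with a median first base at -14 and 25 of 37 sites within the last 60 bases before it or after it. A site shared by 2 overlapping promoters of a gene, as in Ect2 and Prc1, is counted once, from the nearer start. CCAAT matches lay further out, with a median at -71. In the 250 bases before the start alone, the CHR was found in 39.4% of the 33 genes and 17.1% of all promoters, which leaves 13 of the 26 genes with a match there.

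**Figure D2:**
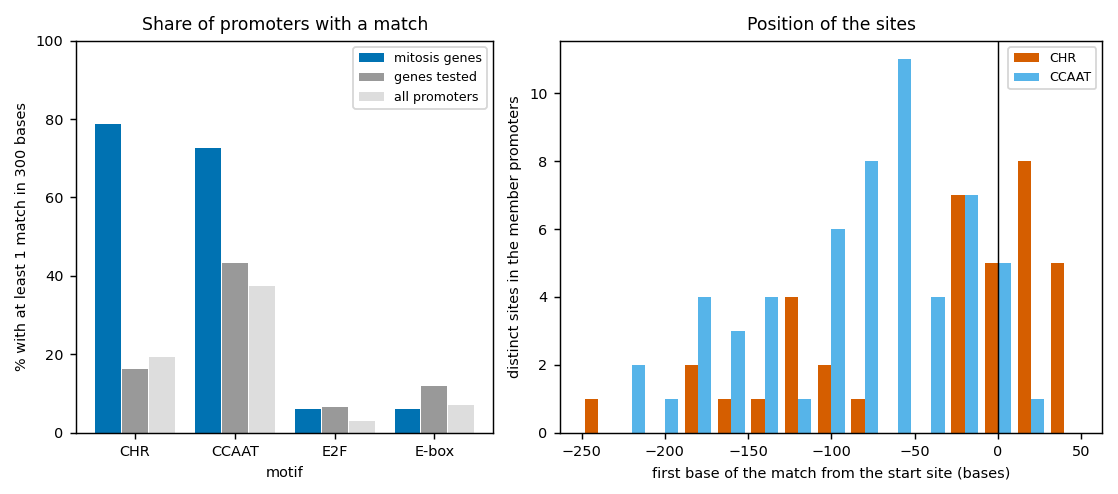
Left, the percentage with at least 1 match to each of 4 motifs in 300 bases. It is given among the 33 mitosis genes with a promoter and the tested genes, both counted by gene, and among all promoters. Right, the number of distinct CHR and CCAAT sites in the members' promoters by the distance in bases of their first base from the nearer start site (line at 0). The CHR reaches 78.8% of the mitosis genes against 19.2% of all promoters, and 25 of its 37 sites begin from 60 bases before the start onwards.

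Promoter stretches of 5 genes show how the 2 elements are arranged, and are given because these genes are main markers or regulators of mitosis. The first 4 carry matches to both elements, whereas Mybl2, which fell the furthest of all 39, has a match to neither in its 300 bases. Each is the 120 bases that end at the base before the start, on the strand of the gene, with CHR and CCAAT matches of either strand in capitals (CCAAT read backwards is ATTGG, and TTTGAA is TTCAAA).
Mki67, chr7:135716380-135716499, minus strand: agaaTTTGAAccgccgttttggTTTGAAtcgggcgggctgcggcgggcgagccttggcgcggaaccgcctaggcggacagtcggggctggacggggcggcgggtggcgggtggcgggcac
Top2a, chr11:99024190-99024309, minus strand: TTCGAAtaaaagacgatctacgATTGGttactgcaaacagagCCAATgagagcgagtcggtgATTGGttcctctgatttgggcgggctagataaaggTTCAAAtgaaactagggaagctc
Cdk1, chr10:69352913-69353032, minus strand: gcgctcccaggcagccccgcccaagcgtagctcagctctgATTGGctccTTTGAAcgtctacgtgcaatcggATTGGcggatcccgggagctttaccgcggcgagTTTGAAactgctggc
Cdc20, chr4:118437344-118437463, minus strand: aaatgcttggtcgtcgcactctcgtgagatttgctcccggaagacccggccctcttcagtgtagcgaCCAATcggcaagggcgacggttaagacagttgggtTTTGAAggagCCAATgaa
Mybl2, chr2:163054515-163054634, plus strand: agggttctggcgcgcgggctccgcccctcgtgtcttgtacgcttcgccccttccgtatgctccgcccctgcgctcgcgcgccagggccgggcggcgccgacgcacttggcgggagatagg
In Mki67 the CCAAT matches lie further out, at -188, -166 and -141.

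Where the CHR lies at or after the start, the bases around it alone are shown, 26 in each case, to show the element in 3 further genes. In the promoters of Plk1, Ccnb2 and Aurka the element begins at base 31, 5 and 33 after the start.
Plk1, chr7:122159455-122159480, plus strand: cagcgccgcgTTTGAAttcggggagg
Ccnb2, chr9:70421535-70421560, minus strand: cggcgcggtaTTTGAAtcgcggaccg
Aurka, chr2:172370523-172370548, minus strand: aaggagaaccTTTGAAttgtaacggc
Genes with and without a CHR match overlapped in their fall from day 0 to day 5. The 26 with a match had a median log2 fold change of -3.45 (range -3.92 to -2.79), and the 7 without one -3.24 (range -5.44 to -2.75). Birc5, Mad2l1, Nuf2 and Nusap1 had a match to neither element, like Mybl2, and Ccnb1 had CCAAT at -99 and -67 without a CHR match. Other forms of the CHR were not searched, so a gene without a match may still hold one.

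In what follows, levels are given by day, each time in the order control, Cry1 knockdown and Cry2 knockdown. The list holds 2 transcription factors. Mybl2, which encodes B-Myb, had 39.7, 53.2 and 22.9 CPM at day 0, 4.36, 3.82 and 3.59 at day 3 and 0.554, 1.06 and 0.943 at day 5. The days did not overlap, and the genotypes were further apart in CPM at day 0 than later. At day 5 it rested on 3, 6 and 5 counts in the control, Cry1 knockdown and Cry2 knockdown, which leaves 1.4% (exact 95% interval 0.286% to 4.13%), 1.99% (0.724% to 4.36%) and 4.12% (1.32% to 9.84%) of the day 0 level. These intervals cover counting error only. The fitted log2 fold change from day 0 to day 5 was -5.44 ± 0.28 (SE, adjusted p = 6.14e-07), the largest of the 39. In 23.8% of its 50-base words Mybl2 matches the gene model Gm3320, so part of its reads could be shared.

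Foxm1, the other factor, had 149, 156 and 97.2 CPM at day 0, 25.5, 26.1 and 13.1 at day 3 and 11.5, 15.7 and 11.1 at day 5. Its day 3 level in the Cry2 knockdown lay below the day 5 level in the Cry1 knockdown, so days 3 and 5 overlapped. The log2 fold change from day 0 to day 3 was -2.65 ± 0.13 (adjusted p = 1.34e-06).

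The cyclins and their kinase had log2 fold changes of -2.59 to -1.74 by day 3. Ccnb1, cyclin B1, had 163, 144 and 126 CPM at day 0, 24.5, 29.2 and 18.8 at day 3 and 7.21, 10.7 and 7.73 at day 5. It had the largest fall after Mybl2 over the whole course, -4.08 ± 0.15 (log2 fold change and SE, adjusted p = 1.35e-07). The pseudogene Ccnb1-ps matches 42.1% of the 50-base words of Ccnb1, but was counted at only 0.176 to 3.55 CPM.

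Ccnb2, cyclin B2, had 84.6, 78.0 and 65.8 CPM at day 0, 24.0, 24.1 and 20.3 at day 3 and 9.24, 9.87 and 8.11 at day 5. Its log2 fold change to day 3, -1.74 ± 0.09, was one of the 3 smallest falls, and 30.0% of the day 0 level was left, against 16.7% for Ccnb1. Cdk1, the kinase that these cyclins activate, had 199.9, 212 and 167 CPM at day 0, 45.3, 39.7 and 41.0 at day 3 and 18.9, 18.5 and 16.6 at day 5. Each genotype kept nearly the same share of it at day 5, with a mean of 9.38%. Ccnf, cyclin F, a substrate receptor for ubiquitin ligation, had 64.1, 72.9 and 54.0 CPM at day 0, 11.9, 13.6 and 10.99 at day 3 and 9.42, 7.22 and 6.79 at day 5. After day 3 it fell by only 0.64 ± 0.15 on the log2 scale (adjusted p = 0.014), one of the 3 smallest changes of that step. Ccna2, cyclin A2, ran from 163 to 205 CPM at day 0 and from 12.9 to 16.6 at day 5.

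Mki67, which encodes the proliferation marker Ki-67, had 281, 300.4 and 237 CPM at day 0, 45.8, 40.0 and 25.4 at day 3 and 21.6, 25.9 and 23.0 at day 5. In the Cry2 knockdown it went from 25.4 to 23.0 CPM after day 3, and its day 3 level there was below the day 5 level of the Cry1 knockdown. Top2a, the topoisomerase that untangles chromosomes, was the highest of the 39 genes in CPM and the second highest per kb of exon at day 0 in the control (59.3 CPM per kb, after Cdc20 with 72.7). It had 534, 544 and 444 CPM at day 0, 99.9, 89.1 and 77.7 at day 3 and 41.8, 45.1 and 39.8 at day 5. The log2 fold change to day 3 was -2.89 ± 0.14 for Mki67 and -2.51 ± 0.08 for Top2a (adjusted p = 1.28e-06 and 2.69e-07).

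Plk1, the Polo-like kinase that acts from mitotic entry to cytokinesis, had 93.2, 97.5 and 81.2 CPM at day 0, 13.8, 15.1 and 9.72 at day 3 and 7.76, 6.17 and 5.47 at day 5. Its log2 fold change to day 3, -2.82 ± 0.12, was surpassed by those of Mybl2 and Mki67 alone. Aurka, the Aurora kinase of the spindle poles, fell by 2.24 ± 0.10 and then by 1.42 ± 0.13 on the log2 scale.

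The chromosomal passenger complex, which corrects faulty attachments and steers cytokinesis, fell as a whole, all 4 of its genes at both steps. Aurkb, its kinase, had 71.4, 72.3 and 57.5 CPM at day 0, 15.9, 13.9 and 12.9 at day 3 and 5.17, 7.93 and 5.09 at day 5. Birc5, which encodes survivin, had 88.4, 92.6 and 72.9 CPM at day 0, 20.8, 21.7 and 16.9 at day 3 and 7.02, 8.81 and 4.53 at day 5. All 3 genotypes kept 23.2% to 23.5% of Birc5 at day 3, and its second step was the largest after Mybl2, a log2 fold change of -1.55 ± 0.14 (adjusted p = 0.000564). Incenp, the scaffold of the complex, had 136, 134 and 102 CPM at day 0, 32.9, 30.5 and 21.6 at day 3 and 15.5, 16.6 and 18.1 at day 5. It was among the 3 genes with the smallest fall over the whole course, a log2 fold change of -2.88 ± 0.14. Cdca8, borealin, had 74.3, 78.5 and 68.0 CPM at day 0, 15.4, 16.4 and 13.3 at day 3 and 7.02, 10.7 and 7.36 at day 5. It was highest in the Cry1 knockdown at each day, and its log2 fold change to day 3 was -2.29 ± 0.11.

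Of the spindle checkpoint genes, Bub1b and Bub1 had log2 fold changes of -2.59 and -2.44 by day 3, and that of Mad2l1 was -1.76. Mad2l1, which encodes the checkpoint effector MAD2, had 72.1, 77.8 and 63.0 CPM at day 0, 20.1, 22.4 and 20.1 at day 3 and 9.42, 10.6 and 11.7 at day 5. Over the whole course its fall was the smallest of the 39, a log2 fold change of -2.75 ± 0.12, and 15.1% was left. Ttk, the checkpoint kinase MPS1, had 40.2, 40.2 and 30.5 CPM at day 0, 7.04, 8.96 and 7.82 at day 3 and 2.22, 4.41 and 3.02 at day 5. It was one of the lowest members per kb of exon, at 8.18 CPM per kb at day 0 in the control.

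Of the 11 roles, 1 holds Cdc20, Ube2c and Cdca3, for partners of the anaphase-promoting complex and mitotic entry. It had the widest spread between genotypes in the share of the day 0 sum that was kept. That share was 21.0% ± 4.6 at day 3 (SD, n = 3), with an SD of 2.6 percentage points at day 5. Cdc20, the activator of the complex, had 136, 129 and 129 CPM at day 0, 19.8, 32.5 and 23.5 at day 3 and 14.8, 5.64 and 7.73 at day 5. The genotypes were nearly equal at day 0, whereas at day 3 the Cry1 knockdown was the highest and at day 5 it was the lowest. Ube2c, the ubiquitin-conjugating enzyme of the complex, was likewise highest at day 3 and lowest at day 5 in the Cry1 knockdown, with 90.9, 85.1 and 83.2 CPM at day 0, 16.9, 21.6 and 14.6 at day 3 and 12.4, 6.70 and 7.73 at day 5. These 2 genes were singled out after their values were seen. Their standard errors at day 3 against day 0, 0.25 and 0.17 on the log2 scale, were among the larger ones of the list. Reads over 22.8% of the exon bases of Ube2c could also come from the overlapping Tnnc2, a muscle troponin gene that rose from at most 0.74 CPM at day 0 to between 10.5 and 11.3 CPM at day 5, since the library kit does not mark strand. Cdc20 shares 11.4% of its 50-base words with Gm7856, which had at most 6.66 CPM. Cdca3, a trigger of mitotic entry, had 9.64% of its day 0 level left at day 5.

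At the centromere and kinetochore, the smallest fall to day 3 of the whole list was that of Spc25, a subunit of the NDC80 complex that grips microtubules. Spc25 had 52.8, 44.8 and 42.4 CPM at day 0, 17.9, 13.4 and 12.3 at day 3 and 5.73, 5.64 and 8.87 at day 5, a log2 fold change of -1.68 ± 0.17. Its partners Ndc80 and Nuf2 had log2 fold changes of -2.10 ± 0.18 and -2.13 ± 0.10. Nuf2 had 75.4, 64.0 and 59.6 CPM at day 0, 16.6, 13.8 and 15.2 at day 3 and 7.58, 7.75 and 6.60 at day 5.

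Cenpa, the histone variant that marks centromeres, had 93.4, 95.3 and 72.5 CPM at day 0, 24.3, 26.1 and 26.2 at day 3 and 14.0, 8.11 and 8.11 at day 5. The control was the highest at day 5, as for Cdc20 and Ube2c. Cenpe, the kinesin of the kinetochore, had 129, 132 and 90.6 CPM at day 0, 24.1, 22.4 and 16.1 at day 3 and 12.2, 13.2 and 11.3 at day 5. Cenpf, a large protein of the outer kinetochore, had 118, 140.5 and 95.2 CPM at day 0, 21.6, 22.4 and 19.6 at day 3 and 16.3, 14.1 and 15.5 at day 5. Cenpf had the smallest second step of the list, a log2 fold change of -0.47 ± 0.14 (adjusted p = 0.0355). It missed the threshold for that step in 11 of 19 alternative runs.

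All 6 kinesins fell at both steps. Kif11, which pushes the spindle poles apart, had 106, 123 and 97.2 CPM at day 0, 18.9, 22.2 and 16.3 at day 3 and 9.61, 11.5 and 8.30 at day 5. Kif23, of the central spindle, had 98.3, 105 and 81.2 CPM at day 0, 14.8, 14.8 and 12.0 at day 3 and 7.76, 5.99 and 5.09 at day 5. Only Mybl2 and Ccnb1 fell further than Kif23 over the whole course, where it fell by 3.92 ± 0.12 on the log2 scale. Kif15, which can support bipolar spindles beside Kif11, had 42.9, 44.4 and 34.2 CPM at day 0, 8.38, 6.97 and 4.44 at day 3 and 4.07, 5.46 and 3.40 at day 5. It was the lowest member per kb of exon (3.89 CPM per kb), and its second step passed most narrowly (a log2 fold change of -0.61 ± 0.20, adjusted p = 0.0444). That step missed the threshold in 14 of 19 alternative runs. Kif4, Kif20a and Kif2c, a chromosome-bound motor, a motor of cytokinesis and a microtubule depolymerase, had log2 fold changes of -2.73, -2.18 and -2.41 by day 3. Kif20a and Kif4 overlap Cdc23 and Pdzd11 over 29.3% and 15.1% of their exon bases.

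The remaining genes act on the spindle and in cytokinesis. Prc1, which bundles the microtubules of the midzone, had 177, 146 and 144 CPM at day 0, 40.2, 34.7 and 29.8 at day 3 and 18.1, 16.7 and 20.4 at day 5. Nusap1, a microtubule-binding protein, had 69.2, 58.3 and 60.0 CPM at day 0, 15.8, 16.1 and 12.9 at day 3 and 8.87, 6.70 and 9.81 at day 5. Both were higher at day 5 in the Cry2 knockdown than in either other genotype. Ect2, the exchange factor that starts furrowing, had 104, 114 and 87.0 CPM at day 0, 16.8, 19.6 and 16.9 at day 3 and 7.76, 9.34 and 9.24 at day 5. Tpx2, which activates Aurora A, and Anln, the scaffold anillin, had log2 fold changes of -2.43 ± 0.08 and -2.20 ± 0.07 by day 3 and were among the higher genes of the list at day 5, with 21.3 to 24.5 and 34.1 to 41.2 CPM.

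**Figure D3:**
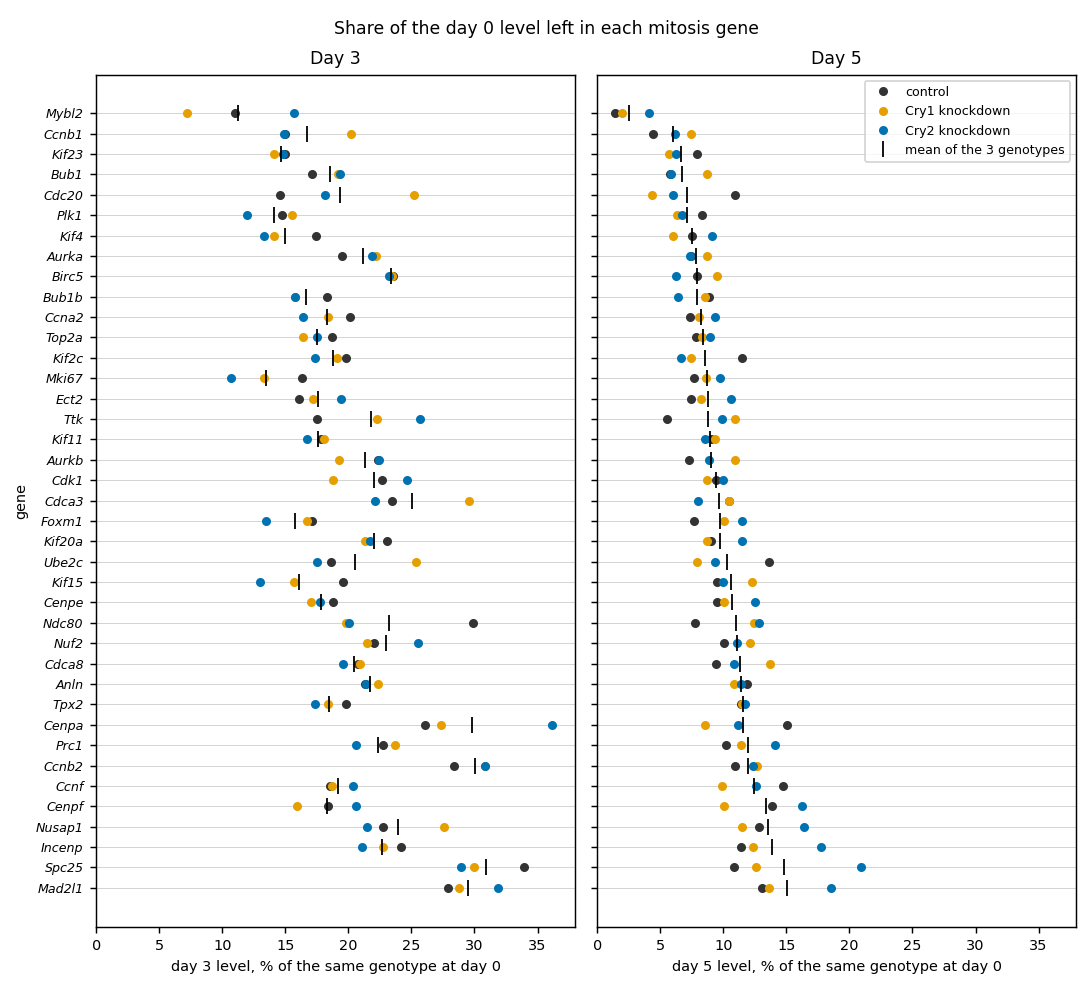
Level of each mitosis gene at day 3 (left) and day 5 (right) as a percentage of the same genotype at day 0, with 1 point per genotype and a tick at their mean, ordered by the day 5 mean. Mybl2 kept 2.5% of its day 0 level at day 5 and Mad2l1 15.1%, the lowest and highest means, and at day 5 Cdc20 and Spc25 spread widely between genotypes.

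The Cry2 knockdown had lower fitted levels than the control in all 39 mitosis genes over the 3 days, but 0 passed the threshold in edgeR's fit and 0 by the Wald test of DESeq2. The median log2 fold change was -0.24, against -0.001 over all genes tested, of which 50.2% were lower. At an unadjusted p under 0.05 there were 14 of the 39, as against 12.2% of tested genes. Few genes of any kind passed in this comparison, 0.0382% of the tested genes lower and 0.0458% higher. The furthest from 0 were Mybl2 (-0.59 ± 0.25, adjusted p = 0.382), Foxm1 (-0.58 ± 0.14, adjusted p = 0.17) and Kif15 (-0.46 ± 0.16, adjusted p = 0.311). At the other end stood Mad2l1 (-0.02 ± 0.12), Ect2 (-0.08 ± 0.11) and Cdca8 (-0.12 ± 0.12). Mki67, Ccnb1, Plk1, Aurkb, Top2a and Cdk1 lay between, at -0.34, -0.29, -0.33, -0.26, -0.24 and -0.20. Single libraries moved some of these values: Mki67 was at -0.18 without the Cry2 knockdown at day 3, Ccnb1 and Cdca8 were at -0.10 and -0.05 without the control at day 0, and Cdk1 was at -0.12 without the Cry2 knockdown at day 0. With the Cry2 knockdown at day 0 left out, 35 of the 39 were still lower, with a median of -0.23, and Mybl2 was at 0.06.

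Day by day, more of the genes were below the control at days 0 and 3 than at day 5. The day 0 ratios rest on the Cry2 knockdown library that stood apart in mt-Co2 and mt-Atp6, whose part in them was not tested. At day 0 all 39 genes were below the control, by a median log2 ratio of -0.26 (prior count of 1), against -0.01 over all tested genes. At day 3 there were 35 below, with a median of -0.29, and at day 5 25, with a median of -0.11. In 38 of the 39 the Cry2 knockdown was the lowest of the 3 genotypes at day 0, Nusap1 being the exception, and so it was in 36.9% of tested genes. The Cry2 knockdown was below the control at every day in 23 of the 39, against 15.9% of tested genes. At day 3 Foxm1 had the lowest ratio to the control, -0.95, and Cdc20 the highest, 0.24. Of the 4 tested fibroblast markers 3 were lower and 0 passed in this comparison, from Col1a1 at -0.62 ± 0.14 (adjusted p = 0.165) to Dcn at 0.12 ± 0.12 (adjusted p = 0.754). Their sum, most of it Col1a1, was 528, 1872 and 3289 CPM in the Cry2 knockdown against 987, 2615 and 3938 in the control, and its part in the result was not tested.

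**Figure D4:**
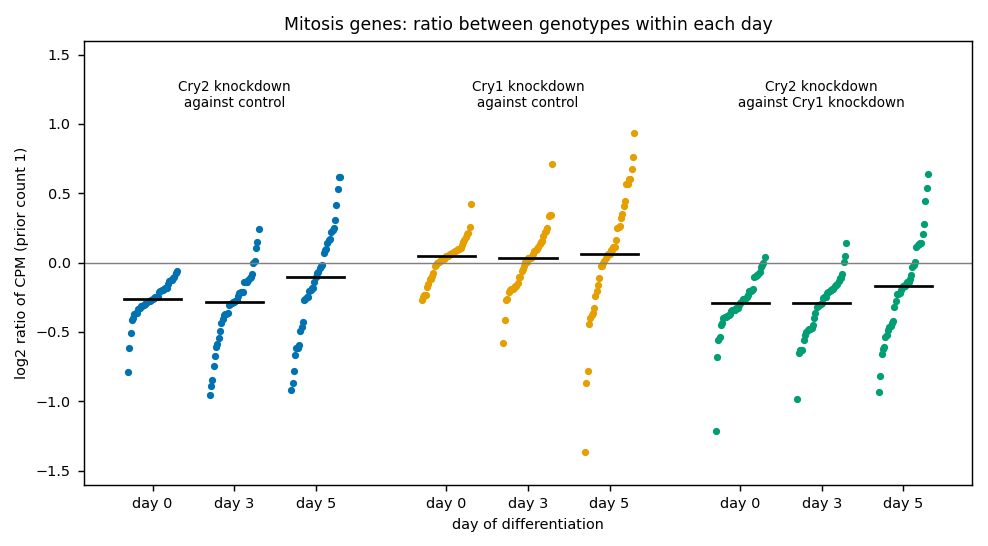
Log2 ratio of each mitosis gene between genotypes at days 0, 3 and 5 (1 point per gene, sorted within each column; black bars, medians). For the Cry2 knockdown against the control all 39 points lie below 0 at day 0 and 25 at day 5, whereas those for the Cry1 knockdown lie on both sides of 0 at each day.

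The Cry1 knockdown stood near the control. There 16 of the 39 genes had a lower and 23 a higher fitted level, with a median of 0.02 (0.01 over all genes tested), and 0 passed with either edgeR or DESeq2, where 1.73% of tested genes were lower and 0.932% higher. Only 1 of the 39, Kif11, had an unadjusted p under 0.05, whereas 19.0% of tested genes did. The highest were Mybl2 (0.30 ± 0.23), Ttk (0.24 ± 0.18) and Kif11 (0.23 ± 0.09, adjusted p = 0.203). The lowest were Spc25 (-0.26 ± 0.18), Prc1 (-0.21 ± 0.11) and Nuf2 (-0.19 ± 0.11). With 1 library left out, Ttk ran from 0.13 (without the control at day 5) to 0.58 (without the control at day 0), and Spc25 from -0.38 (without the control at day 5) to -0.14 (without the control at day 3). Nuf2 was at -0.12 without the control at day 0. Within days 0, 3 and 5 the medians of the log2 ratio were 0.05, 0.03 and 0.06. Spc25, Prc1 and Anln were below the control at every day, and 19.9% of tested genes were. At day 0 the myotube markers added up to 797 CPM in the Cry1 knockdown and 272 in the control. All 5 had a higher fitted level in the Cry1 knockdown and Ckm passed (0.84 ± 0.18, adjusted p = 0.0452). Of the 5 myoblast markers 1 was lower, Myf5, and Pax7 alone passed, as higher (0.92 ± 0.20, adjusted p = 0.048). Of the 4 tested fibroblast markers Dcn passed as lower (-1.31 ± 0.13, adjusted p = 0.00464) and Col1a1 as higher (0.75 ± 0.14, adjusted p = 0.0316). Lum (-1.41 ± 0.36, adjusted p = 0.0804) and Pdgfra (0.01 ± 0.20) did not pass. The part of these markers in the ratios was not tested.

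Set directly against the Cry1 knockdown, the Cry2 knockdown had lower fitted levels in 37 of the 39 genes, with a median of -0.28 (-0.01 over all genes tested). Of these, 3 passed the threshold, where 3.69% of tested genes were lower and 4.24% higher. Foxm1 was lower by -0.72 ± 0.14 (adjusted p = 0.0183), Cenpe by -0.45 ± 0.11 (adjusted p = 0.0367) and Kif11 by -0.40 ± 0.09 (adjusted p = 0.0299). In each of the 3 the Cry2 knockdown was the lower one at every day, as it was in 26 of the 39 and in 25.9% of tested genes. Mybl2 had the largest value, -0.89 ± 0.24, without passing (adjusted p = 0.0577), but was at -0.24 (adjusted p = 0.707) without the Cry2 knockdown at day 0. Kif15 followed Foxm1 with -0.49 ± 0.16. Spc25 and Nusap1 went the other way, at 0.07 ± 0.18 and 0.05 ± 0.14, and Prc1 was at -0.001 ± 0.12. Other cell type markers moved in the same comparison: all 5 myotube markers had lower fitted levels in the Cry2 knockdown (median -0.76), of which Ckm passed (-0.84 ± 0.18, adjusted p = 0.0256). Of the 4 tested fibroblast markers 2 were lower. Only Col1a1, which was lower (-1.38 ± 0.14, adjusted p = 0.00165), and Dcn, which was higher (1.43 ± 0.13, adjusted p = 0.00131), passed among these markers. Their part in the result was not tested.

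These 3 calls did not outlast every change of the data. Leaving out any 1 of the 6 knockdown libraries left 0 of the 39 past the threshold, except for the Cry2 knockdown at day 5, without which 2 passed. Without the control at day 0 there was 1, and without the control at day 3 or day 5 there were 3. The Wald test of DESeq2 called Foxm1 alone.

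The size of the response to differentiation did not differ detectably between the genotypes. In the edgeR fit that compares day 0 with days 3 and 5 by genotype, 0 of the 39 genes differed between the Cry2 knockdown and the control, where 0.0294% of 13608 tested genes had a lower and 0.00735% a higher response, and 0 had an unadjusted p under 0.05, as against 6.01% of tested genes. The median difference in log2 response was 0.06, between -0.42 for Kif2c and 0.71 for Mybl2. Without the control at day 3 these 2 were at -0.78 and 1.57, and without the control at day 5 at -0.20 and 0.50. Without the Cry2 knockdown at day 5, Kif2c was at -0.30. In this fit the day 0 level of the Cry2 knockdown is the library that stood apart in mt-Co2 and mt-Atp6. The part of that library in these differences was not tested. For the Cry1 knockdown against the control 0 of the 39 differed either, DESeq2 called 0 in both, and of all tested genes 0% had a lower and 0% a higher response. There 1 of the 39 had an unadjusted p under 0.05, Ccnb1 at 0.55 ± 0.21, as had 4.92% of tested genes, and the median was -0.02. The standard errors of these differences ran from 0.17 to 0.59 on the log2 scale, so that small differences in a single gene could not be resolved.

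Other mitosis genes, from a list of 76 that excludes the 39, fell as well. All 76 fell from day 0 to day 3, where 25.7% of all tested genes fell. The median log2 fold change was -2.10. The largest falls were those of Espl1, the protease separase (-2.71 ± 0.15), and Cdca2, a subunit that guides a phosphatase (-2.71 ± 0.18). No gene of that list rose by day 3. From day 3 to day 5, 75 of the 76 had a lower fitted value, and 59 passed as lower, as did 13.2% of tested genes. Against the control, 67 of the 76 were lower in the Cry2 knockdown and 0 passed, where 50.2% of tested genes were lower. Of 38 DNA replication genes, 37 fell by day 3, as did 25.7% of tested genes. The median fall was 1.61 on the log2 scale over the whole list. Among those that fell were the helicase subunit Mcm5 (-2.18 ± 0.21) and the sliding clamp Pcna (-1.09 ± 0.12). In the Cry2 knockdown 31 of the 38 were lower than in the control, and 0 passed. Against the Cry1 knockdown, 5 of the 38 passed as lower and 0 as higher, and of the 76 other mitosis genes 5 and 1. Of all tested genes 3.69% and 4.24% did.

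Genes of cell cycle exit and of the DREAM and MuvB complexes did not move as one. Of 16, 5 rose and 5 fell by day 3, not far from the split of all tested genes, of which 25.4% rose and 25.7% fell. Cdkn1a, the inhibitor p21, rose by 2.04 ± 0.11 on the log2 scale, from 320 to 445 CPM at day 0 to between 1378 and 1569 at day 3 and between 1555 and 1976 at day 5, and Cdkn1c, the inhibitor p57, by 3.85 ± 0.30. Cdkn1c was back at 0.377 to 1.85 CPM at day 5 (day 5 against day 0, 0.37 ± 0.41, adjusted p = 0.466). Among those that fell were Rbl1, the pocket protein p107 (-1.37 ± 0.19), and Lin9, a MuvB subunit (-1.18 ± 0.17).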

How the data were processed

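PolyA RNA of 9 C2C12 libraries was sequenced, 1 for each of 3 genotypes and 3 days. The deposited files hold raw counts per gene, made by the authors from mm10 alignments, and the tools named in the submitters' processing notes are featureCounts 1.4.6, HISAT2 2.0.2 and CASAVA 1.8. The annotation and strand setting used for counting are not given in the sources used here, and the library kit, TruSeq RNA v2, does not mark strand. Libraries were compared with each other and no pair was identical. The 39 genes, the other lists and the tests were chosen with earlier results of these data known.

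Counts were scaled by TMM, filtered with filterByExpr and tested in edgeR 4.0.16 (limma 3.58.1, R 4.3.3) by the quasi-likelihood F test. The additive model (genotype plus day, all 9 libraries) had 13094 genes and 4 residual degrees of freedom, and the interaction model (genotype and stage, where stage sets days 3 and 5 apart from day 0) had 13608 genes and 2. Adjusted p-values are by Benjamini-Hochberg over all tested genes, with a threshold of 0.05, and standard errors are the absolute log2 fold change over the square root of F. Where a gene has no count, 3 counts remain possible, which is 0.468 CPM in the deepest and 0.634 CPM in the shallowest library. Both fits were tested on simulated data first. Named members were those with the 3 highest and 3 lowest fold changes in a comparison, members that went against most, members past the threshold where 5 or fewer were, and Mki67, Top2a, Ccnb1, Cdk1, Plk1, Aurkb, Foxm1 and Mybl2. Copies were searched as 50-base words of each gene's transcripts in those of other genes, with GENCODE transcripts of mm10, which also gave exon overlaps. Promoters came from RefSeq (GRCm38.p6). Alternatives were RLE size factors, library totals, other filters on low counts, DESeq2 1.42.0, the 6 libraries compared, no genotype term, each library, day or genotype left out, a prior count of 5, and the bases before the start alone. Python 3.11.15 with pandas 2.3.3, scipy 1.17.1 and matplotlib 3.10.9 did the rest.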

Additional observations from a re-analysis of the deposited data

How the results depend on the processing

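The falls of the 39 genes with the days kept their direction in every alternative run. Of 2223 alternative values for single genes in the day comparisons, 45 missed the threshold, all from day 3 to day 5, and 0 changed sign. The median log2 fold change from day 0 to day 3 moved to -2.471 with library totals only, to -2.327 without the control, to -2.319 without the Cry2 knockdown, and to between -2.414 and -2.322 with 1 library left out. From day 0 to day 5 it moved to -3.548 with library totals only, a scaling that takes the median of all tested genes from 0.007 to -0.159. Within the control, Cry1 knockdown and Cry2 knockdown, the median ratio of day 3 to day 0 was -2.298, -2.307 and -2.282 with a prior count of 5, and -2.449, -2.445 and -2.431 with library totals only. That of day 5 to day 0 was -3.553, -3.533 and -3.439 with library totals only, and -3.274 and -3.122 in the 2 knockdowns with a prior count of 5.

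For the Cry2 knockdown against the control, 1 gene passed without a filter on low counts, Foxm1 (-0.602, adjusted p = 0.0155), and 0 in the other alternatives. Against the Cry1 knockdown 5 passed without the filter, 1 by DESeq2, 1 with only the 6 libraries, 0 without day 0, 0 without day 3 and 1 without day 5, and 0 to 3 with 1 library left out. Fewer samples enter the last of these. Leaving out 1 library gave adjusted p-values of 0.0127 to 0.0794 for Foxm1, 0.0365 to 0.173 for Cenpe and 0.0354 to 0.119 for Kif11. The median of the Cry1 knockdown against the control was -0.015 without day 0 and -0.016 to 0.061 with 1 library left out. Within days 3 and 5 it was 0.048 and 0.040 with library totals only.

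Small differences changed sign. In the Cry2 knockdown against the control, Mad2l1 was at 0.129 and Ect2 at 0.109 without day 0, and with 1 library left out Mybl2 ran from -0.750 to 0.062, Mad2l1 from -0.115 to 0.118 and Ect2 from -0.150 to 0.080. Against the Cry1 knockdown, Spc25 was at -0.081 and Nusap1 at -0.077 without day 5, and with 1 library left out they ran from -0.123 to 0.200 and from -0.067 to 0.171. Prc1 was at 0.008 with library totals only, 0.000 by DESeq2, 0.012 without day 0 and 0.117 without day 3, and ran from -0.120 to 0.104. In the Cry1 knockdown against the control Mybl2 ran from -0.181, without the Cry1 knockdown library of day 0, to 0.496. For the responses to differentiation, with 1 library left out, the median ran from -0.077 to 0.186 for the Cry2 knockdown and from -0.040 to 0.143 for the Cry1 knockdown, where 12 to 23 genes had a lower fitted value and Mybl2 ran from -0.612 to 0.453. Those fits could not be made without a day 0 library of a genotype compared. The cause of these changes was not tested.

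In the 250 bases before the start alone, the CHR was found in 39.4% of the 33 genes, TTTGAA in 36.4%, and CHR with CCAAT in 33.3%. The additive model already matches libraries by genotype and by day, and without its genotype term 39, 36 and 39 genes fell from day 0 to day 3, day 3 to day 5 and day 0 to day 5. Beyond that, no paired analysis was possible because each group has 1 library and no replicate numbers to match. Depth limits Mybl2 at day 5, which had 3 to 6 counts.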

Other observations

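The 39 genes took 0.518% of all counts in the control at day 0, 0.0954% at day 3 and 0.0435% at day 5. In the Cry1 knockdown the shares were 0.523%, 0.0959% and 0.0432%, and in the Cry2 knockdown 0.434%, 0.0781% and 0.0395%. By role, the summed level at day 3 was 14.7% ± 1.0 of that at day 0 for the transcription factors, 16.1% ± 1.5 for Mki67 with Top2a, 17.2% ± 0.97 for Plk1 with Aurka and 18.1% ± 1.0 for the kinesins (SD over the 3 genotypes). It was 22.1% ± 0.76 for the chromosomal passenger complex and 22.6% ± 1.9 for the centromere and kinetochore genes. The role of anaphase-promoting complex partners and mitotic entry had the widest spread, 21.0% ± 4.6, with 26.2% in the Cry1 knockdown and 17.8% in the control. At day 5 the control kept 11.7% of its sum, against 6.84% in the Cry1 knockdown and 7.45% in the Cry2 knockdown.

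At day 0 in the control, expression per kb of exon ran from 3.89 CPM per kb for Kif15 to 72.7 for Cdc20 among the 39 genes. Cdc20, Top2a, Ccnb2 and Tpx2 were the highest, and Kif15, Cenpf, Ttk and Ccnf the lowest.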
